A study of Mus musculus with 2 samples.

Results

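The genes described here are 34 symbols grouped as type I interferon stimulated genes, a list given by gene symbol. Of these, 33 had a row among the 27998 genes measured, and Mx2 was not analysed here. They were followed across 6 kinds of leukocyte in mouse tumours, and between 2 genotypes of the host. CD45+ cells, that is leukocytes, had been sorted from tumours of the transplantable melanoma line B16 on day 14 of growth and were not treated in culture. The hosts were C57BL/6 females, 5 weeks of age. Transcripts were read at their 3′ ends in droplets, and unique molecular identifiers (UMIs) made each captured transcript count once. The control library was from Foxp3Cre-YFP mice, in which the Foxp3 locus of regulatory T cells drives Cre recombinase and a yellow fluorescent protein. The Nrp1L/L library was from Nrp1L/LFoxp3Cre-YFP mice, which carry the same Foxp3 allele and a floxed Nrp1, the gene of the receptor neuropilin-1, so that Cre acts in cells that express or have expressed Foxp3. Both genotypes therefore carry the Cre allele, and every leukocyte other than regulatory T cells is outside the intended site of deletion. There was 1 library per genotype, and how many mice each library pools is not given in the sources used here. Genotype and library cannot be told apart, no test between genotypes was possible, and every interval below covers counting error only.

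Type I interferons, the alpha and beta interferons, bind a receptor made of IFNAR1 and IFNAR2 and act through the kinases JAK1 and TYK2. A complex that contains STAT2 and IRF9 then binds the interferon-stimulated response element (ISRE) in the promoters of antiviral genes. Interferon-gamma, the product of activated T and NK cells, acts on a different element (GAS), and many antiviral genes respond to both kinds of interferon. In tumours such transcripts are found in myeloid cells and in lymphocytes, so the levels below do not tell which interferon was at work, and that was not tested.

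The ISRE itself can be read in several of these promoters, which are shown because the comparison below sets genes with and without it side by side. The windows are RefSeq sequence of GRCm38.p6, 5′ to 3′ on the gene's own strand, with the matches in capitals. The core searched was GAAANNGAAA on either strand, and a match on the other strand shows as its reverse complement. For Isg15, the ubiquitin-like modifier, the 250 bases before the start of the gene are given (chr4:156200819-156201068, minus strand). The others are 60-base windows around the match: Ifit1 (chr19:34640769-34640828, plus strand), Ifit3 (chr19:34583365-34583424, plus), Ifit3b (chr19:34607761-34607820, plus), Rsad2 (chr12:26456538-26456597, minus), Oas3 (chr5:120777700-120777759, minus) and Bst2 (chr8:71537565-71537624, minus).
Isg15: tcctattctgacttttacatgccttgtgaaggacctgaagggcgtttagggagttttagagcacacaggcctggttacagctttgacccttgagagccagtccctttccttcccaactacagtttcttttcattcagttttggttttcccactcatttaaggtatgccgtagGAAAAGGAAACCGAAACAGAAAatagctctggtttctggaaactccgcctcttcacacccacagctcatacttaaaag
Ifit1: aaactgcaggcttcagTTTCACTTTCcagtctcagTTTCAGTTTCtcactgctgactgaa
Ifit3: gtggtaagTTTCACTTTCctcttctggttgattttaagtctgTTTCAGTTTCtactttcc
Ifit3b: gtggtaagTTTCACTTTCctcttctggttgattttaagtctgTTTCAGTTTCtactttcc
Rsad2: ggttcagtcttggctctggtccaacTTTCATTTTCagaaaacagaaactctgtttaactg
Oas3: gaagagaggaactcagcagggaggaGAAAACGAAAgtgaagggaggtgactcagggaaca
Bst2: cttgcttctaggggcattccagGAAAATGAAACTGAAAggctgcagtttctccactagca
Isg15 held 3 overlapping matches, and the windows of the neighbouring paralogs Ifit3 and Ifit3b were identical over 60 bases. Bst2 held 2 overlapping matches. Of the 34 genes, 24 had a promoter in the table. The core was found in the 250 bases before the start in 10 of these 24 (41.7%): Isg15, Ifit1, Ifit3, Ifit3b, Rsad2, Oas1a, Oas3, Stat2, Trim30a and Bst2. Over all 27025 genes with a promoter it was found in 936 (3.46%). The GAS core, TTCNNNGAA, was found in 5 of 24 members (20.8%) and in 8.13% of all genes. These are matches of letters in a window and not measured binding sites.

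The control library held 1310 cell barcodes with a median of 8079.5 UMIs, and the Nrp1L/L library 1301 with a median of 5334, a depth 1.51-fold higher in the control. After doublet calls, 1284 and 1275 cells were kept, and 3 barcodes occurred in both libraries. Cells were put into classes by gates on a few marker transcripts: CD8 T (CD3 and CD8 genes), other CD3 (CD3 genes without CD8), NK (Ncr1 and Klrb1c), macrophage (the C1q genes), dendritic (Cd209a and Flt3) and monocyte (Lyz2 with few C1q transcripts). A class is a range of transcript counts and not a proven cell type. The gates took 1142 control and 1164 Nrp1L/L cells, 20 cells per library passed both a lymphoid and a myeloid gate, and 122 and 91 passed none. The gates held 231 and 390 CD8 T, 194 and 355 other CD3, 80 and 186 NK, 268 and 87 macrophage, 305 and 117 monocyte and 64 and 29 dendritic cells, control first. Summed defining markers, which include the gate genes, were highest in the gate of their name, apart from the other CD3 list, whose CD3 genes CD8 T cells share. In the dendritic gate the summed monocyte markers stood at 6332 and 30954 CPM in the control and Nrp1L/L library, and the macrophage markers at 334 and 1416 CPM. Of 6 dendritic markers, Cd209a was at least 1.5-fold higher there in the Nrp1L/L library, and Zbtb46 (19 and 1 UMIs), Xcr1 and Clec9a were lower by that fold. The other 2 lay within it. Over all genes in that gate, 23.7% were higher and 21.7% lower. The dendritic list, which includes the gate genes, summed to 1483 and 2207 CPM. The content of the dendritic gate therefore differed between the 2 libraries, and its ratios are given with that limit. Plasmacytoid dendritic markers stood there at 283 and 826 CPM. In the monocyte gate these markers stood at 21.3 and 90.1 CPM and the CD8 T markers at 19.7 and 70.6 CPM, and basophil markers had 0 and 25 UMIs. The part of these shifts in the results was not tested. The targeted gene Nrp1 stood at 43.0 and 44.9 CPM in the other CD3, 57.3 and 26.0 CPM in the CD8 T, 80.2 and 73.2 CPM in the macrophage and 23.4 and 45.6 CPM in the monocyte gate. As deletion is meant for regulatory T cells and the 3′ end may lie outside the floxed part, this does not check the genotype. Basophil markers summed to 2.49 and 71.6 CPM in the other CD3 gate. Foxp3 itself had 3 and 5 UMIs in the other CD3 gate, so the cells in which Nrp1 was targeted were not resolved.

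Summed over the 33 genes and scaled to the total UMIs of the gate (CPM, counts for every 1000000 UMIs), interferon-stimulated transcripts were most abundant in the monocyte gate, with 9583 CPM (9459 to 9708) for control and 14698 CPM (14451 to 14947) for Nrp1L/L, the brackets giving the exact 95% Poisson interval. Next came the macrophage gate with 7438 CPM (7343 to 7534) for control and 11596 CPM (11366 to 11830.1) for Nrp1L/L. The dendritic gate held 5569 CPM (5394 to 5748) and 11151 CPM (10763 to 11549.7) in the same order. Myeloid cells thus stood above every lymphoid gate in both libraries. In the other CD3 gate the sum was 4617 CPM (4512 to 4723) and 7626 CPM (7498 to 7756). CD8 T gate cells held 1970.3 CPM (1919.7 to 2022) and 5252 CPM (5176 to 5330.3). The NK gate was lowest, with 1408 CPM (1315 to 1505) and 2880.2 CPM (2772 to 2992). The order of the 6 gates was the same in both libraries, and the intervals of neighbours overlapped for macrophage and dendritic cells of the Nrp1L/L library alone. Those 2 gates changed places in the Nrp1L/L library when the thresholds were doubled, and the other CD3 gate passed the dendritic gate there when monocytes were called first. Monocyte gate cells exceeded NK gate cells 6.81-fold among control and 5.10-fold among Nrp1L/L cells. Without Ifi27l2a, the member with the most UMIs, the order was not shared by the libraries. The CD8 T gate was then lowest in the control, at 1212 CPM beside 1323 CPM in the NK gate. In the Nrp1L/L library the dendritic gate, at 9610 CPM, then stood above the macrophage gate, at 8548 CPM. In all 6 gates the Nrp1L/L library stood above the control.

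**Figure D1:**
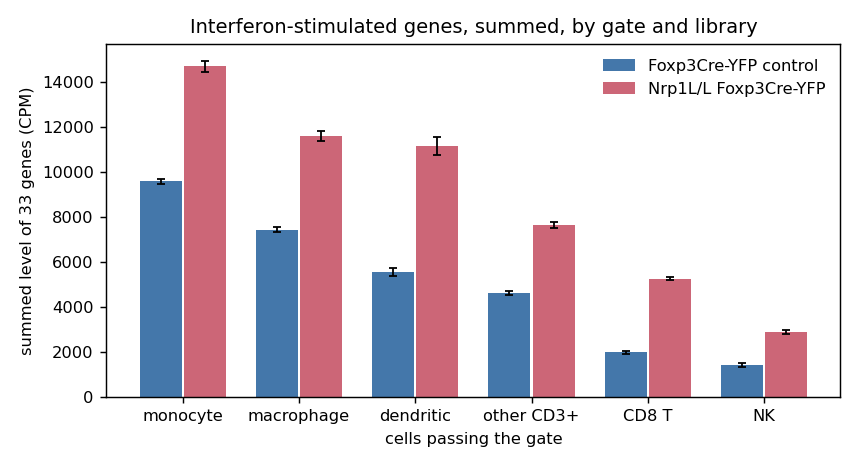
Summed level of 33 interferon-stimulated genes in CPM (vertical axis) in cells of each gate, with 1 bar per library and error bars for the exact 95% Poisson interval, which covers counting error only. The Nrp1L/L bar is the higher of the pair in every gate, and the monocyte gate is highest in both libraries.

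Single cells were also compared at equal depth. Each cell was thinned at random to 2500 UMIs, which kept every cell, because the shallowest held 2659. In the monocyte gate the median cell then had 20 interferon-stimulated UMIs (25th to 75th percentile 12 to 33) for control and 35 (21 to 48) for Nrp1L/L. For macrophage gate cells the medians were 18 (10 to 27) and 25 (16 to 37.5). The dendritic gate had medians of 13.5 and 27, the latter above the macrophage gate. CD8 T gate cells had 4 (1 to 9) and 12 (7 to 20). The ranges of cells overlapped between libraries, with the lower, middle and upper quartile each higher in the Nrp1L/L library in the monocyte, macrophage and CD8 T gates. At the 5th percentile, CD8 T gate cells had 0 such UMIs among control and 3 among Nrp1L/L cells. No interferon-stimulated UMI at all was left in 28 of 231 control and 5 of 390 Nrp1L/L CD8 T gate cells. The number of different members seen per thinned cell also differed, with a median of 2 and 5 members in CD8 T, 8 and 11 in monocyte and 2 and 3 in NK gate cells. Free RNA released by broken cells adds a few UMIs to any droplet and was not subtracted.

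**Figure D2:**
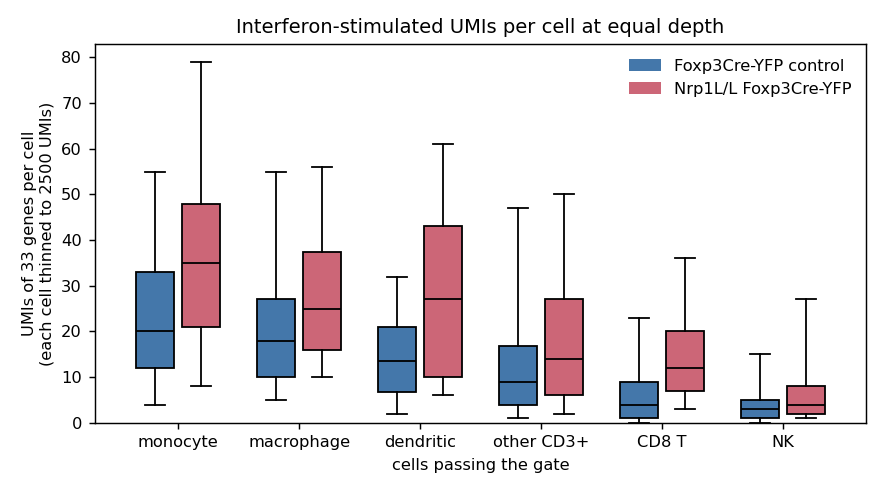
Interferon-stimulated UMIs per cell after each cell was thinned to 2500 UMIs (vertical axis), by gate and library. The line is the median, the box the 25th to 75th percentile and the whiskers the 5th to 95th percentile of cells. The boxes of the Nrp1L/L library sit higher in each gate and overlap those of the control.

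For 22 of 33 members in the control and 18 in Nrp1L/L cells, the monocyte gate had the highest CPM. In both libraries at once 15 of 33 were highest there, against 5.39% of all genes tested. Others were highest in a different gate. Bst2, the membrane tether tetherin that holds budding viruses, was highest in the macrophage gate in both libraries (923 and 1159.8 CPM, control then Nrp1L/L). Isg20, an exonuclease that degrades RNA, was highest in the other CD3 gate (135 and 205 CPM). Stat2, a transcription factor of the type I interferon response, peaked in the dendritic gate (43.5 and 93.0 CPM), as did the mono-ADP-ribosyltransferase family gene Parp9 (43.5 and 129 CPM) and Eif2ak2, the RNA-activated kinase PKR that stops translation (55.1 and 114 CPM). In the control dendritic gate Stat2, Parp9 and Eif2ak2 rest on 30, 30 and 38 UMIs. Their intervals there overlap those of other gates, with 29.4 to 62.1 CPM for Stat2 beside 28.0 to 43.5 CPM in the monocyte gate. The lowest level of a member lay in the NK gate for 14 members (control) and 18 (Nrp1L/L), and in the CD8 T gate for 17 and 12. Ifi27l2a, a small interferon-induced mitochondrial protein gene, supplied more UMIs than any other member. It made up 38.5% and 44.7% of the summed transcripts in the CD8 T gate and 47.6% and 41.0% in the other CD3 gate. In the NK gate its share was 6.06% and 4.19%, at 85.3 and 121 CPM. Because of this weight, the gates that changed places without it are named above, and the ratios of the sum are also given without it below.

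**Figure D3:**
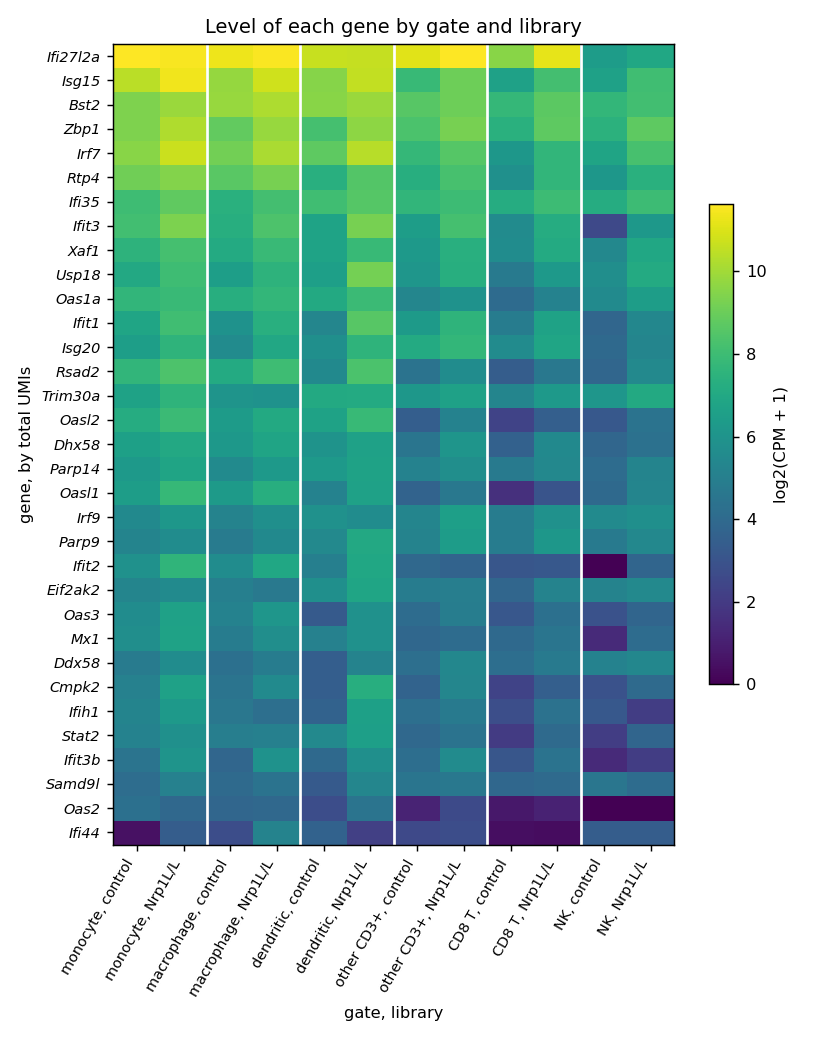
Level of each of 33 genes as log2(CPM + 1) (colour) in each gate and library (columns), with genes ordered by total UMIs. The myeloid columns at the left are brighter than the lymphoid columns for most genes, and the 2 NK columns are darker than the others for Ifi27l2a.

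Between genotypes, the sum of the 33 genes was higher in the Nrp1L/L library in each gate, by a log2 ratio of 1.41 (1.37 to 1.46) in CD8 T, 0.72 (0.68 to 0.77) in other CD3 and 1.03 (0.92 to 1.15) in NK gate cells. The myeloid ratios were 0.64 (0.61 to 0.68) in macrophage, 0.62 (0.59 to 0.65) in monocyte and 1.00 (0.93 to 1.07) in dendritic gate cells. Here and below a ratio is the log2 ratio of Nrp1L/L over control, given with its exact 95% binomial interval. Levels are given as control then Nrp1L/L, and the brackets after a pair of levels hold the ratio and its interval. Without Ifi27l2a the ratios were 1.26 in CD8 T, 0.89 in other CD3, 1.06 in NK, 0.81 in macrophage, 0.87 in monocyte and 1.27 in dendritic gate cells. A member or gene was counted as higher or lower when its CPM was at least 1.5-fold apart, among those with at least 20 UMIs over both libraries. Of 180 pairs of member and gate that reached that count, 136 were higher in the Nrp1L/L library, 0 were lower by that fold, and 9 had a ratio below 0.

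In the CD8 T gate 28 of 31 members were higher, where 16.6% of all genes tested were higher, and 0 were lower, where 14% of all genes were lower. The members' median log2 ratio was 1.37 there, beside 0.00 over all genes. Without cycling cells 14 of 30 members were higher, against 19.8% of all genes, and 2 were lower (Ifit2 and Ddx58), against 12.8%, and the summed ratio was 0.81. The other CD3 gate had 21 of 31 members higher against 18.2% of all genes, and 0 lower against 15.4%, with a median of 0.95. In the NK gate 17 of 24 were higher against 23.5%, and 0 lower against 13.8%, with a median of 1.19. Among lymphocytes the members thus leaned 1 way, and the shares of members stood above those of all genes. In the macrophage gate 24 of 33 members were higher against 14.4% of all genes, and 0 lower against 24.6%, with a median of 0.75 beside −0.12 over all genes. The monocyte gate had 23 of 32 higher against 16.5%, and 0 lower against 18.1%, with a median of 0.82. In the dendritic gate 23 of 29 were higher against 23.7%, and 0 lower against 21.7%, with a median of 1.17. The content of the dendritic gate moved with this result, and its part in it was not tested. When cells with at least 10 Lyz2 UMIs were called monocytes first, its summed ratio was 0.31, with 7 members higher and 5 lower. The share over all genes was not computed for that setting, so these counts do not tell whether members differ from all genes there.

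Of the 22 members measured in all 6 gates, 11 were higher in each, beside 0.617% of all genes measured in all 6: Isg15, Isg20, Ifit1, Ifit3, Rsad2, Oasl1, Oasl2, Usp18, Irf7, Xaf1 and Zbp1. At the other end were Ifi27l2a and Bst2, higher in the CD8 T gate alone, Samd9l in 1 of 5 gates, Eif2ak2 in 2 of 6 and Oas2 in 0 of 2. These counts include the dendritic gate, whose content differed between libraries and where fewer members were higher with monocytes called first. Without cycling cells 14 of 30 members were higher in the CD8 T gate, against 19.8% of all genes. The count over all 6 gates was not repeated under those settings.

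**Figure D4:**
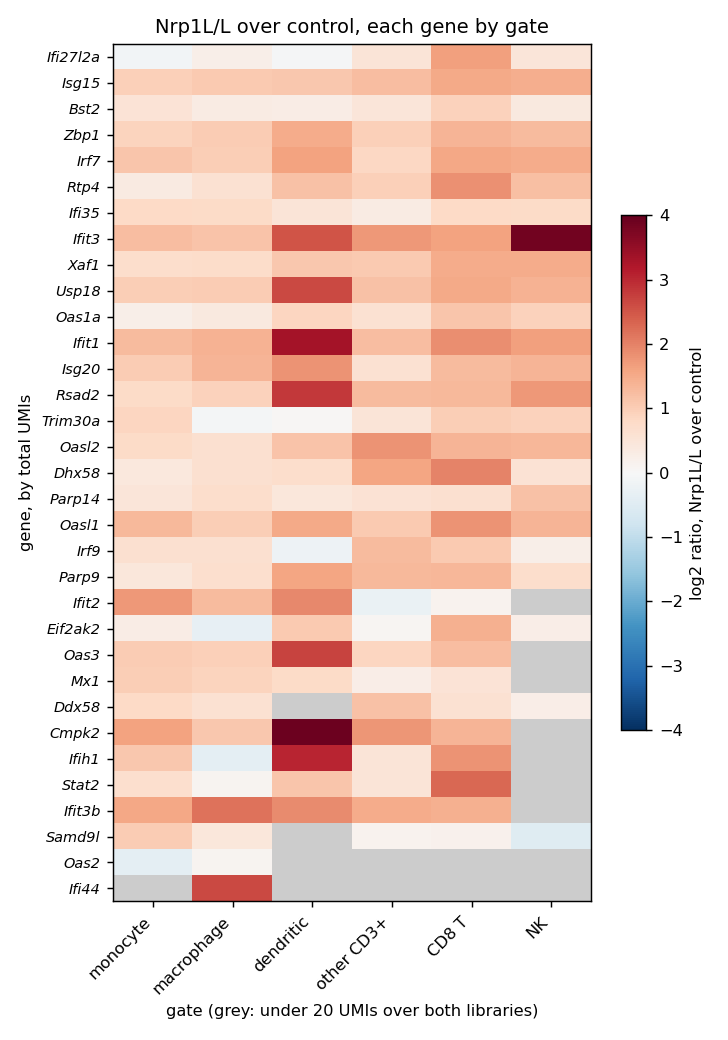
Log2 ratio of Nrp1L/L over control (colour) for each gene and gate, with genes ordered by total UMIs and grey where there were under 20 UMIs over both libraries. Most cells of the plot are red (higher in the Nrp1L/L library), and Ifi27l2a at the top ranges from −0.09 to 0.51 outside the CD8 T gate, where it is 1.63.

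The nucleic acid sensors come first in the pathway. Zbp1, a sensor of left-handed nucleic acids that can trigger cell death, stood at 165 and 426 CPM in the CD8 T gate, a ratio of 1.37 (1.22 to 1.52). In the monocyte gate it stood at 661 and 1221 CPM (0.89, 0.77 to 1.00), and in the macrophage gate at 455 and 918 CPM (1.01, 0.89 to 1.14). It was among the 3 members of highest CPM in each lymphoid gate, at 319 and 615 CPM in the other CD3 gate and 177 and 430.1 CPM in the NK gate. Dhx58, the regulator LGP2 of the RNA sensors, stood at 11.3 and 45.2 CPM in the CD8 T gate (2.0, 1.45 to 2.59). Ifih1, the sensor MDA5 of long double-stranded RNA, had a ratio of 1.79 (1.00 to 2.65) in the CD8 T gate. In the macrophage gate it was −0.39 (−1.3 to 0.42), with an interval that spans 0. Ddx58, the sensor RIG-I, had 0.26 (−0.55 to 1.10) in the NK gate, where its interval spans 0. Summed, the sensors had ratios of 1.38 in CD8 T, 0.99 in other CD3, 1.08 in NK, 0.92 in macrophage, 0.85 in monocyte and 1.49 in dendritic gate cells.

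Among the transcription factors, Irf7 drives the alpha interferon genes and amplifies the response. It stood at 763 and 1659 CPM in the monocyte gate, 572 and 1125 CPM in the macrophage gate and 69.3 and 201 CPM in the CD8 T gate, with ratios of 1.12 (1.02 to 1.22), 0.98 (0.86 to 1.09) and 1.54 (1.31 to 1.77). Stat2 was at 3.09 and 15.1 CPM in the CD8 T gate (2.29, 1.25 to 3.50) and at 30.3 and 32.4 CPM in the macrophage gate (0.10, −0.58 to 0.73). Its CD8 T value rests on 9 and 51 UMIs. Irf9, the DNA-binding part of the complex that recognises the ISRE, had ratios whose intervals span 0 in NK (0.24, −0.45 to 0.96) and dendritic gate cells (−0.21, −1.21 to 0.70), and a higher one in the other CD3 gate (1.28, 0.85 to 1.73). In the NK gate Irf7 stood at 109.9 and 305 CPM (1.47, 1.08 to 1.88). Of these 3 factors, Irf7 alone was higher in all 6 gates.

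The IFIT genes encode proteins that bind foreign RNA and block its translation, and their summed ratio was above that of the other groups of members in each gate, apart from Mx1 alone in the NK gate, which had 1 and 15 UMIs. Their sums gave 1.60 (1.41 to 1.81) in CD8 T, 1.44 (1.25 to 1.62) in other CD3, 2.71 (1.86 to 3.71) in NK, 1.29 (1.13 to 1.44) in macrophage, 1.33 (1.21 to 1.45) in monocyte and 2.61 (2.32 to 2.91) in dendritic gate cells. Ifit3 stood at 277 and 649 CPM in the monocyte gate (1.23, 1.07 to 1.39) and at 88.4 and 292 CPM in the other CD3 gate (1.72, 1.45 to 2.0). In NK gate cells Ifit3 had 3 and 66 UMIs, a ratio of 3.86 (2.25 to 6.18), and was seen in 1.25% of thinned control cells and 6.45% of thinned Nrp1L/L cells. Ifit1 stood at 28.5 and 103 CPM in the CD8 T gate (1.86, 1.51 to 2.22), 60.7 and 159.7 CPM in the macrophage gate (1.40, 1.07 to 1.72) and 39.2 and 389.8 CPM in the dendritic gate (3.32, 2.70 to 3.98). The change of gate content applies to the dendritic values of Ifit1 and of the IFIT sum. Ifit2 was less uniform, at 58.6 and 197 CPM in the monocyte gate (1.75, 1.42 to 2.08) and 7.54 and 8.28 CPM in the CD8 T gate (0.13, −0.72 to 1.01), where the interval spans 0. Ifit3b stood at 13.4 and 60 CPM in the macrophage gate (2.16, 1.54 to 2.79). Ifit3 and Ifit3b are near copies: 14.9% of the 50-base words in the last 500 bases of Ifit3 transcripts also occur in Ifit3b, so the split of reads between them is uncertain.

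The ISG15 system tags proteins with the small modifier ISG15, and Usp18 removes the tag and restrains the interferon receptor. Isg15 was among the most abundant members, at 1361 and 2660.0 CPM in the monocyte gate (0.97, 0.89 to 1.04) and 873 and 1786 CPM in the macrophage gate (1.03, 0.94 to 1.13). In lymphocytes it stood at 99.1 and 281 CPM in the CD8 T gate (1.51, 1.31 to 1.70), 229 and 541 CPM in the other CD3 gate (1.24, 1.06 to 1.42) and 98.5 and 267 CPM in the NK gate (1.44, 1.03 to 1.87). Its level thus differed between gates by more than between libraries, while its ratio was near 1 or above in all of them. Usp18 reached 94.3 and 594 CPM in the dendritic gate (2.65, 2.23 to 3.09), where the change of gate content applies.

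The OAS genes make or resemble the synthetases that switch on the RNA-cleaving enzyme RNase L. Their sums had ratios of 1.24 in CD8 T, 0.97 in other CD3, 1.07 in NK, 0.66 in macrophage, 0.70 in monocyte and 1.17 in dendritic gate cells. Oasl1, which restrains Irf7 translation, stood at 89.1 and 219 CPM in the monocyte gate (1.3, 1.01 to 1.58), and Oasl2 at 9.96 and 34.7 CPM in the other CD3 gate (1.80, 0.99 to 2.69). Oas1a differed little in the monocyte gate, at 198 and 235 CPM (0.25, 0.01 to 0.48), and 56.1% of its 3′ words are shared with Oas1g, so its own level is uncertain. Oas2 stood at 18.4 and 14.1 CPM in the monocyte gate (−0.38, −1.40 to 0.54). Ratios within this family thus ranged from below 0 to above 1 in monocyte gate cells.

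Enzymes that act on nucleotides and RNA gave some of the widest ratios. Cmpk2, a mitochondrial nucleotide kinase, stood at 33 and 99.9 CPM in the monocyte gate (1.60, 1.15 to 2.05) and at 10.2 and 154 CPM in the dendritic gate (3.92, 2.76 to 5.32), the latter from 7 and 43 UMIs. Rsad2, its neighbour in the genome and the source of viperin, which makes a chain-terminating nucleotide, stood at 137 and 262 CPM in the macrophage gate (0.94, 0.70 to 1.18) and 45 and 318 CPM in the dendritic gate (2.82, 2.22 to 3.46). The change of gate content applies to the dendritic values of Cmpk2 and Rsad2. Isg20 stood at 47.9 and 124 CPM in the macrophage gate (1.37, 0.99 to 1.74). For the PARP genes Parp9 and Parp14, the summed ratio lay between 0.48 in the monocyte and 1.02 in the CD8 T gate. Mx1, a GTPase that traps viral particles and is known to be defective in C57BL/6 mice, stood at 52.7 and 104 CPM in the monocyte gate (0.98, 0.59 to 1.38) and at 13.7 and 16.5 CPM in the other CD3 gate (0.27, −0.58 to 1.14).

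Ifi27l2a and Bst2, both abundant, reached the 1.5-fold difference in the CD8 T gate and in no other. Ifi27l2a stood in the CD8 T gate at 759 and 2346 CPM, a ratio of 1.63 (1.56 to 1.70), and 55.0% of thinned control cells and 85.6% of thinned Nrp1L/L cells carried it. In the monocyte gate it stood at 3168 and 2967 CPM, a ratio of −0.09 (−0.16 to −0.03), and 89.8% and 90.6% of thinned cells carried it. Macrophage gate cells had 2569.8 and 3048 CPM (0.25, 0.18 to 0.31) and dendritic gate cells 1593 and 1541 CPM (−0.05, −0.21 to 0.11). The member with the highest count was thus nearly level between libraries in myeloid gates and far apart in the CD8 T gate. Bst2 stood at 210.1 and 277 CPM in the NK gate (0.40, 0.09 to 0.72), 216 and 409.9 CPM in the CD8 T gate (0.92, 0.79 to 1.06) and at 923 and 1159.8 CPM in the macrophage gate (0.33, 0.22 to 0.44). Eif2ak2 had 31.6 and 25.2 CPM in the macrophage gate (−0.33, −1.08 to 0.36), 28.6 and 30.1 CPM in the other CD3 gate (0.07, −0.52 to 0.68) and 36.1 and 43.4 CPM in the NK gate (0.27, −0.52 to 1.09). Trim30a, a TRIM protein that restrains inflammatory signalling, had 63.9 and 60 CPM in the macrophage gate (−0.09, −0.57 to 0.36), 132 and 136 CPM in the dendritic gate (0.04, −0.54 to 0.60, below 0 under both other scalings) and 38.7 and 77.2 CPM in the CD8 T gate (0.99, 0.67 to 1.33). Of its 3′ words, 19.9% are shared with Trim30d, so its own level is uncertain. Samd9l, a translation inhibitor, had 13.7 and 15.4 CPM in the CD8 T gate (0.17, −0.46 to 0.80). Rtp4, a chaperone that brings receptors to the cell surface, stood at 56.2 and 199 CPM in the CD8 T gate (1.82, 1.57 to 2.08) and 552 and 714 CPM in the monocyte gate (0.37, 0.24 to 0.51). Xaf1, which promotes cell death, stood at 49.4 and 137 CPM in the CD8 T gate (1.47, 1.20 to 1.75) and 42.7 and 119 CPM in the NK gate (1.49, 0.86 to 2.16). Ifi44 was measured in the macrophage gate alone, with 18 and 30 UMIs.

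The share of dividing cells differed between libraries. Cells with at least 3 UMIs over 10 cell cycle genes made up 49.4% of control and 27.4% of Nrp1L/L cells in the CD8 T gate, and 27.2% and 9.20% of macrophage gate cells. In summed CPM, cycling cells of the CD8 T, other CD3, NK and macrophage gates stood below the other cells in both libraries. The NK gate held 11 control and 15 Nrp1L/L cycling cells. In the monocyte gate the order of CPM differed, with 6872 and 9625 CPM in cycling and other control cells. The Nrp1L/L monocyte gate, with 3 cycling cells, had 23045 and 14498 CPM. Medians of thinned cells did not follow the CPM throughout. In the Nrp1L/L NK gate they were 5 interferon-stimulated UMIs in cycling and 4 in other cells. In the control other CD3 gate they were nearly level, at 8.5 and 9. The cycling median was also the lower in the remaining groups of the CD8 T, other CD3, NK and macrophage gates. In the control CD8 T gate the sum was 1349.8 CPM in 114 cycling and 3587 CPM in 117 other cells. For Nrp1L/L the sums were 4061 CPM in 107 cycling and 6304 CPM in 283 other cells. The ratio was therefore 1.59 among cycling and 0.81 among other CD8 T gate cells, beside 1.41 for the gate as a whole. In the other CD3 gate the ratios were 1.00 in cycling cells and 0.43 in the others. In the macrophage gate they were 0.70 and 0.46, with 8 cycling cells in the Nrp1L/L library. The direction of the sum was the same in cycling and in other cells of these 3 gates. Cycling cells were called from counts that are deeper in the control, and the part of division in the difference was not tested.

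**Figure D5:**
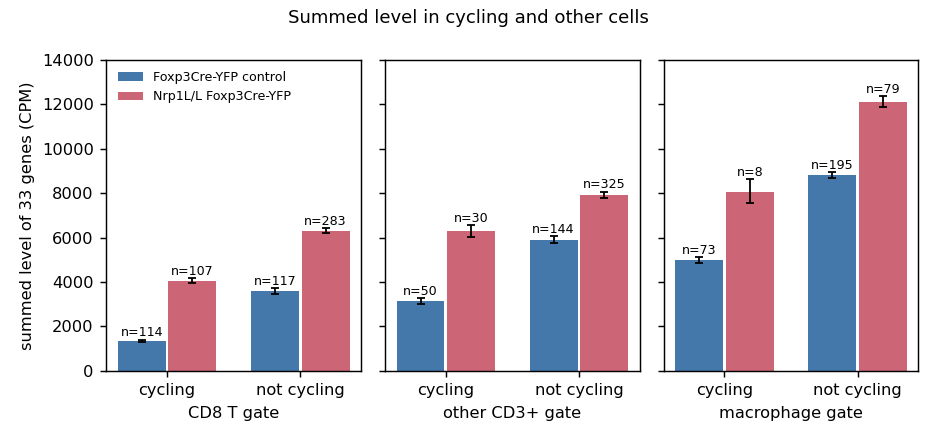
Summed level of 33 interferon-stimulated genes in CPM (vertical axis) in cycling and not cycling cells of the CD8 T, other CD3 and macrophage gates, by library, with the exact 95% Poisson interval. Cycling cells sit below the others in each pair, and the Nrp1L/L bar is above the control in each.

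Macrophage transcripts were low in the lymphoid gates. The summed macrophage markers stood at 90.9 and 44.1 CPM in CD8 T, 95.3 and 47.8 CPM in other CD3 and 112 and 58.6 CPM in NK gate cells, beside 18284 and 18298 CPM in the macrophage gate. They were lower in the Nrp1L/L library in the 3 lymphoid gates. The summed monocyte markers were higher there, at 2657 and 4249 CPM in CD8 T, 2076 and 2892 CPM in other CD3 and 1575 and 1649 CPM in NK gate cells. Of that list Ly6c2, which lymphocytes also express, stood at 945 and 2641 CPM in the CD8 T gate, while Lyz2 stood at 85.4 and 66.8 CPM in CD8 T, 94.0 and 77.9 CPM in other CD3 and 121 and 76.0 CPM in NK gate cells. Melanoma transcripts (Pmel, Mlana, Dct, Tyrp1, Tyr) summed to 44.7 and 44.4 CPM in the macrophage gate and to 4.11 and 2.07 CPM in the CD8 T gate. The part of free RNA in the interferon-stimulated sums was not tested.

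For the ligands of the pathway, 18 genes of type I interferons were found in the gene list, and Ifnb1 was the only one with a UMI. It had 46 UMIs among control cells and 0 among Nrp1L/L cells. Of the 46, 43 lay in 3 of 268 macrophage gate cells and 41 in a single cell, so the count mostly describes that cell. In the Nrp1L/L library 0 of 87 macrophage gate cells held it, which allows a share of up to 3.45% of cells with a UMI. No difference in beta interferon between the libraries can be read from so few cells. Ifng, the gene of interferon-gamma, was at 257 and 628 CPM in the CD8 T gate (1.29, 1.17 to 1.41), 108 and 393 CPM in the other CD3 gate (1.86, 1.62 to 2.11) and 149 and 248 CPM in the NK gate (0.73, 0.37 to 1.10).

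The receptor genes Ifnar1 and Ifnar2 encode the chains that type I interferons bind. Ifnar1 stood at 47.3 and 104 CPM in the CD8 T gate (1.13, 0.84 to 1.42) and had ratios between −0.61 and 0.36 in the other gates. Ifnar2 had ratios between −0.04 and 0.61. Of the receptors and kinases, 3 of 8 were higher and 2 lower in the CD8 T gate, 0 of 7 higher and 1 lower in the other CD3 gate, and 2 of 6 higher and 0 lower in the NK gate. The myeloid counts were 2 of 8 higher and 0 lower in the macrophage, 1 of 8 higher and 0 lower in the monocyte, and 1 of 7 higher and 2 lower, Ifnar1 among them, in the dendritic gate. Among all genes 14.4% to 23.7% were higher and 13.8% to 24.6% lower in a gate, so with so few genes these counts do not set the list apart. Of the genes that sense nucleic acids upstream of interferon, 1 of 7 was higher and 0 lower in the CD8 T gate, where 16.6% of all genes were higher and 14% lower. The other CD3 gate had 1 of 7 higher and 1 lower, and the NK gate 2 of 4 higher and 0 lower. In the macrophage gate 4 of 8 were higher and 2 lower, where 14.4% of all genes were higher and 24.6% lower. The monocyte gate had 3 of 7 higher and 1 lower, and the dendritic gate 2 of 2 higher. The ranges over all genes just given hold for each gate. Irf1, a factor strongly induced by interferon-gamma, stood at 116 and 296 CPM in the monocyte gate (1.35, 1.10 to 1.60) and 90.2 and 118 CPM in the CD8 T gate (0.39, 0.16 to 0.62).

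Genes that lean towards interferon-gamma also stood higher in the Nrp1L/L library. Of 20 such genes, 12 of 14 measured were higher in the CD8 T gate (16.6% of all genes), 13 of 16 in the other CD3 gate (18.2%) and 6 of 12 in the NK gate (23.5%), with 0 lower in each. In myeloid cells 16 of 19 were higher in the macrophage (14.4%), 15 of 18 in the monocyte (16.5%) and 13 of 14 in the dendritic gate (23.7%), again with 0 lower. Their median log2 ratios were 1.18, 1.10, 0.53, 1.91, 1.43 and 1.73 in that order, beside 1.37, 0.95, 1.19, 0.75, 0.82 and 1.17 for the interferon-stimulated genes measured in each gate. The median of the interferon-gamma list was the higher of the pair in the 3 myeloid gates and in the other CD3 gate, and the lower in the CD8 T and NK gates. The difference between the lists was not tested. Cxcl9, a chemokine that draws T cells, stood at 51.0 and 625 CPM in the monocyte gate (3.62, 3.33 to 3.91) and 87.8 and 372 CPM in the macrophage gate (2.08, 1.84 to 2.32). Gbp2, a guanylate-binding protein, stood at 124 and 645 CPM in the macrophage gate (2.38, 2.18 to 2.57) and 21.3 and 122 CPM in the CD8 T gate (2.52, 2.13 to 2.93).

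Within a gate, members differed in how far they varied with the rest from cell to cell. Over members found in at least 20% of thinned cells, the median correlation with the sum of the other members was 0.36 in control and 0.33 in Nrp1L/L monocyte gate cells, and 0.32 and 0.38 in macrophage gate cells. The lowest were Oas1a at 0.09 in control and Dhx58 at 0.07 in Nrp1L/L macrophage gate cells. Isg15 was the highest of the members in these gates, at 0.59 over 305 control and 0.78 over 117 Nrp1L/L monocyte gate cells, and 0.62 over 268 and 0.56 over 87 macrophage gate cells. For Ifi27l2a the same correlation was 0.33 and 0.29 in the monocyte gate and 0.34 and 0.22 in the macrophage gate. The coefficients of Ifi27l2a were thus below those of Isg15 in both myeloid gates. These coefficients describe cells that share a library and its free RNA, and carry no test. In NK gate cells of the Nrp1L/L library Isg15 had 0.58 and Ifi27l2a −0.11 over 186 cells, with Ifi27l2a in 13.4% of them, under the 20% above. In control NK gate cells Isg15 had 0.45 and Ifi27l2a 0.13 over 80 cells, in 12.5% and 13.8% of them. In the CD8 T gate Ifi27l2a had 0.41 in control and 0.22 in Nrp1L/L cells.

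Ratios can be set beside the ISRE core. In the CD8 T gate the median log2 ratio was 1.36 over 10 measured members with the core and 1.37 over 13 without it. In the other CD3 gate the medians with and without it were 1.05 over 10 and 0.82 over 13, and in the NK gate 1.44 over 7 and 1.05 over 10. In the macrophage gate they were 0.95 over 10 and 0.75 over 14, in the monocyte gate 0.91 over 10 and 1.01 over 13, and in the dendritic gate 1.49 over 10 and 1.52 over 11. Bst2, with 2 overlapping cores in the window printed above, had 0.33 in the macrophage gate, and Isg15, with 3, had 1.03. The difference between members with and without the core was not tested. Bases beyond the 250 before each start were not searched.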

How the data were processed

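Per the labels, CD45+ cells were sorted from B16 tumours and 2600 cells were loaded per library on a GemCode instrument, with 14 cycles of cDNA amplification. The authors deposited UMI counts per gene and barcode. Per the submitters' processing notes, Cell Ranger 1.3 and the mm10 build were used. The deposited counts were whole numbers in barcodes already called as cells, and the feature and barcode lists name their rows and columns. The control library held 13042802 UMIs (3414 to 84144 per cell) and the Nrp1L/L library 8978610 (2659 to 42414 per cell). The counting error of a value follows the UMIs of its gate, which were fewer in the control for the lymphoid and fewer in Nrp1L/L for the myeloid gates.

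From these counts, doublets were scored with Scrublet in scanpy 1.11.5. Its own threshold marked 0.229% and 0.307% of barcodes, under the 0.5% set as the least share for its use. The highest-scoring 2% (26 per library) were left out instead. Gates needed at least 2 UMIs (CD3, CD8, NK and dendritic genes) or 10 UMIs (C1q genes or Lyz2). Cells passing a lymphoid and a myeloid gate were set aside. Many cells lay near a threshold: 39 kept control cells had 1 UMI over Ncr1 and Klrb1c, beside 119 with at least 2. These counts include cells that passed the CD3 or a myeloid gate, and the NK gate itself held 80 control cells. Counts were summed per gate and library and divided by the gate's total UMIs (CPM). Intervals are exact 95% Poisson (levels) or binomial (ratios). PCR copies are collapsed by UMIs, and the intervals hold no spread between mice. Genes with at least 20 UMIs over both libraries were compared with a fold of 1.5. Where a count of 0 is given, its limit is 3 counts.

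No p-value was computed, since there is 1 library per genotype. Promoter windows came from RefSeq (GRCm38.p6), and 3′ words from GENCODE transcripts of the same build. The members and gene lists were chosen with earlier results of these data known. Genes named are, in each gate, the 3 of highest CPM and the 3 of highest and lowest ratio with at least 50 UMIs, plus the pathway genes Irf1, Ifnar1, Ifnar2, Ifnb1, Ifng, Cxcl9 and Gbp2. Another pathway gene of that rule is not reported here. Other members were named to complete their group, with their values known. The calculation of ratios and intervals was tested on simulated data. Alternatives changed the scaling (TMM in edgeR 4.0.16, median of ratios in DESeq2 1.42.0), depth, gates, doublets, cycling cells and low-count filter.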

Additional observations from a re-analysis of the deposited data

Results flagged for a closer look

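Ifi27l2a, the member with the most UMIs, had a log2 ratio of −0.09 in the monocyte gate and 1.63 in the CD8 T gate, with the control at 3168 CPM in monocyte and 759 CPM in CD8 T gate cells. It was singled out because the libraries stood in opposite order in these gates, and with 1 library per genotype the difference was not tested.

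Cells that entered no comparison also carried interferon-stimulated transcripts. The 20 Nrp1L/L cells that passed a lymphoid and a myeloid gate held 8336 CPM summed over the 33 genes, beside 6927 CPM in the 20 such control cells. The 91 Nrp1L/L cells that passed no gate held 6665 CPM, beside 5544 CPM in 122 control cells. Both were singled out as signal outside the gates that was above the control.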

How the results depend on the processing

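No paired analysis was possible because there was 1 library per genotype and the labels give no replicate number. The summed log2 ratio of Nrp1L/L over control stayed above 0 in the 6 gates under each of the alternatives run, at its lowest 0.31 in the dendritic gate. Values below are given in the order CD8 T, other CD3, NK, macrophage, monocyte and dendritic gate unless gates are named. With cells thinned to 2500 UMIs the ratios were 1.11, 0.43, 0.85, 0.48, 0.66 and 0.93, and with gates set on thinned counts 1.37, 0.95, 0.81, 0.53, 0.65 and 1.17. As the mean of each cell's own CPM they were 1.08, 0.44, 0.83, 0.51, 0.68 and 0.91. Without cycling cells they were 0.81 in CD8 T, 0.43 in other CD3, 0.89 in NK and 0.46 in macrophage gate cells. Doubled gate thresholds gave 1.5 in CD8 T, 0.67 in other CD3, 0.55 in macrophage, 0.54 in monocyte and 1.08 in dendritic gate cells. Keeping cells of 2 lineages gave 0.64 in other CD3 and 0.72 in NK, and keeping doublet calls 0.68 and 0.92. Without Ifi27l2a, an alternative chosen after seeing the data and the same as leaving out the most counted member in these gates, the ratio was 1.26 in CD8 T, 0.89 in other CD3, 0.81 in macrophage, 0.87 in monocyte and 1.27 in dendritic gate cells. TMM and median-of-ratios scaling gave 0.69 and 0.71 in macrophage, 0.58 and 0.57 in monocyte, and 0.87 and 0.89 in dendritic gate cells, where they shifted all genes by −0.13 and −0.11. Calling monocytes before dendritic cells gave 0.65 in the monocyte and 0.31 in the dendritic gate.

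The number of members at least 1.5-fold higher was 14 in the CD8 T gate without cycling cells, 11 in the NK gate with thinned cells or with at least 50 UMIs required, and 12 in the dendritic gate with thinned cells or 7 with monocytes called first. Members lower by that fold appeared under some alternatives. Apart from the CD8 T gate without cycling cells, the share over all genes was not computed for these alternatives. The counts therefore do not tell whether members differ from all genes there. With thinned cells there was 1 in CD8 T, 1 in other CD3, 3 in macrophage and 1 in dendritic gate cells. Without cycling cells there were 2 in CD8 T, 1 in other CD3 and 1 in macrophage gate cells. Thinned gates gave 1 in the macrophage gate, keeping cells of 2 lineages 1 in the NK gate, a UMI required in each library 1 in the NK and 1 in the dendritic gate, and monocytes called first 5 in the dendritic gate. In the Nrp1L/L library the dendritic gate ranked 2 and the macrophage gate 3 with thinned gates, doubled thresholds or no cycling cells, and with monocytes called first the other CD3 gate ranked 3 and the dendritic gate 4. At 1000 UMIs per cell the log2 ratio of means per cell was 0.49 in other CD3 and 0.55 in macrophage gate cells. The cause was not tested for these shifts. Outside the counting interval of the reported value lay 49 of 72 recomputed summed ratios, 51 of 96 summed CPM values and 63 of 459 ratios of single members. Depth limits the NK and dendritic gates most, since they hold the fewest UMIs.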
